A study of Rattus norvegicus with 6 samples.

Results

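Genes of glucose uptake and glycolysis were followed after knockdown of SLC2A10 in vascular smooth muscle cells (VSMCs) of the rat, which give the arterial wall its tone. They are Slc2a1, Hk2, Gapdh, Pkm and Ldha, 5 of the 13304 genes and loci in the deposited tables. The members were taken by their Ensembl gene IDs, whatever their measured values, and all 5 were listed in all 6 libraries. Of the 6 libraries, 2 carried interference sequence 2 against SLC2A10, 2 carried interference sequence 3, and 2 were controls. The methods describe aortic VSMCs from Sprague-Dawley rats, cultured with serum to passage 3, and name short hairpin RNA as the means of knockdown. The results text of the study adds that the sequenced material was cells infected with a virus carrying the hairpin RNA, or with a control virus. The labels name the strain SD and the tissue aorta for all libraries, give the genotype SLC2A10-/- to the knockdown libraries and wild type to the controls, call the reagent siRNA, and describe RNA from frozen aorta. The series text names mice. The study text and the labels thus disagree on whether cultured cells or tissue were sequenced. In such bulk RNA fewer cells of a type and less RNA per cell cannot be told apart. The numbers 2 and 3 were read from the sample titles, as were the replicate numbers 1 and 2. Nothing says that replicates came from separate cultures, so each p-value covers just the scatter among these 6 libraries, and that scatter may be technical.

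Glucose enters most cultured cells by facilitated transport and is broken down to pyruvate by glycolysis. GLUT1, the product of Slc2a1, is the transporter of basal glucose uptake. Hexokinase, encoded in one of its forms by Hk2, traps the sugar inside the cell as glucose phosphate, and Gapdh, Pkm and Ldha encode later enzymes on the way to pyruvate and lactate. SLC2A10, the gene targeted here, encodes GLUT10, another member of the same transporter family, so that the question put to the 5 genes is whether the machinery of glucose use moved when GLUT10 was targeted. Gapdh is also widely used as a reference gene in quantitative PCR.

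The stretches of DNA just upstream of these genes are shown for the most variable gene of the group, Hk2. They are also shown for Slc2a1, with the narrowest range of FPKM over the libraries, and for Ldha. Of the 5 upstream stretches, that of Ldha held the most matches to ACGTG. Each stretch is the 250 bases before the gene start in RefSeq on build GRCr8, read along the gene's own strand. Hk2 is at chr4:116841276-116841525 on the minus strand, Slc2a1 at chr5:138002272-138002521 on the plus strand and Ldha at chr1:106507842-106508091 on the plus strand. Capitals mark ACGTG on either strand, a form of the core of the hypoxia response element. Other forms of that core were not searched, so the counts are of ACGTG alone.
Hk2: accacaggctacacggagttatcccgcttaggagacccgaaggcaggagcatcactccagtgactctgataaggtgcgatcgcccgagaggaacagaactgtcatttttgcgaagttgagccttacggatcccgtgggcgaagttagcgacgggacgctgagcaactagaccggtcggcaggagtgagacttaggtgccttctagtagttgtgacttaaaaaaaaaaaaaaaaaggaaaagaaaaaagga
Slc2a1: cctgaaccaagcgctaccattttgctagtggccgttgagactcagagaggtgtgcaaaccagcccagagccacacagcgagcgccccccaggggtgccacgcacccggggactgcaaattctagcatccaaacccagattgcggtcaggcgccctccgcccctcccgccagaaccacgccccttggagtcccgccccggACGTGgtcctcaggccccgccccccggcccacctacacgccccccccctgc
Ldha: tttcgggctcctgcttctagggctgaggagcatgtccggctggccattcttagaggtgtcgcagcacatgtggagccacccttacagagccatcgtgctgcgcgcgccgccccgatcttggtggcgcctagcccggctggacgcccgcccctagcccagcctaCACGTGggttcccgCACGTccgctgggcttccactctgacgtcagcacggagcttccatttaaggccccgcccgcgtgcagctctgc
ACGTG was found 0 times in the Hk2 stretch, 1 time in that of Slc2a1 and 3 times in that of Ldha, where 2 of the copies are the 2 strands of a single CACGTG. The same length upstream of Gapdh held 1 copy and that of Pkm 0. Of 33469 rat promoters in the table, 16.6% held ACGTG at least once. The GC box GGGCGG, searched on both strands, was found 3 times each upstream of Slc2a1 and Ldha, 1 time upstream of Pkm, 0 times upstream of Gapdh and Hk2, and in 30.5% of all promoters. The palindrome CACGTG was found upstream of Ldha alone among the 5, and in 5.59% of all promoters. The GC content was 49.6% upstream of Hk2, against 63.2% to 68.4% upstream of the other 4 and a median of 51.2% over all promoters. These are matches of letters in a reference genome, whose build may differ from that of the deposited coordinates, and say nothing of which factor was bound.

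Expression was measured as FPKM, a fragment count corrected for the length of the transcript and for how many fragments were mapped in that library. The authors listed such a value for every event of a gene, that is for its transcript starts, its transcript ends and its splice choices. The level of a gene is here the larger of its summed starts and its summed ends. There are no read counts. Among 331 genes below 0.6 FPKM in both controls, at most 3 shared a ratio between the controls, so whole reads could not be recovered, and the depth behind a value is unknown. The libraries listed 12837 to 13826 starts and 11365 to 11679 ends, and the summed FPKM of all genes was 368004 in replicate 2 of sequence 3 against 298377 to 326236 in the other 5. That library also had the fewest starts. The annotation used here paired none of the 12251 Ensembl IDs with a symbol, and the 5 names come with the list of IDs that defines the group. Therefore SLC2A10 itself, the rest of the pathway and the markers of smooth muscle and of other cell types were not analysed here, and every direction rests on the labels.

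None of the 5 genes had a called change between the knockdown libraries and the controls. By limma with Benjamini-Hochberg adjustment over all 10558 genes tested, 0 of 5 passed an adjusted p of 0.05 in knockdown against control, where 5.11% of all genes passed. With just 5 genes, a count of 0 does not set them apart from that share. At an unadjusted p of 0.05 the count was also 0 of 5, against 21.9% of all genes. The 5 genes had a median log2 difference of 0.06 on the scale of log2(FPKM + 1), against 0.08 over all genes tested. With sequence 2 alone 0 of 5 were called, against 3.55% of all genes, and with sequence 3 alone 0 of 5, against 4.21%. At an unadjusted p of 0.05 the counts were 0 of 5 with sequence 2, against 16.2% of all genes, and 1 of 5, Hk2, with sequence 3, against 22.4%. Both sequences were set against the same 2 control libraries. All 5 genes passed the filter of at least 1 FPKM in 2 libraries, and none was near it.

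**Figure D1:**
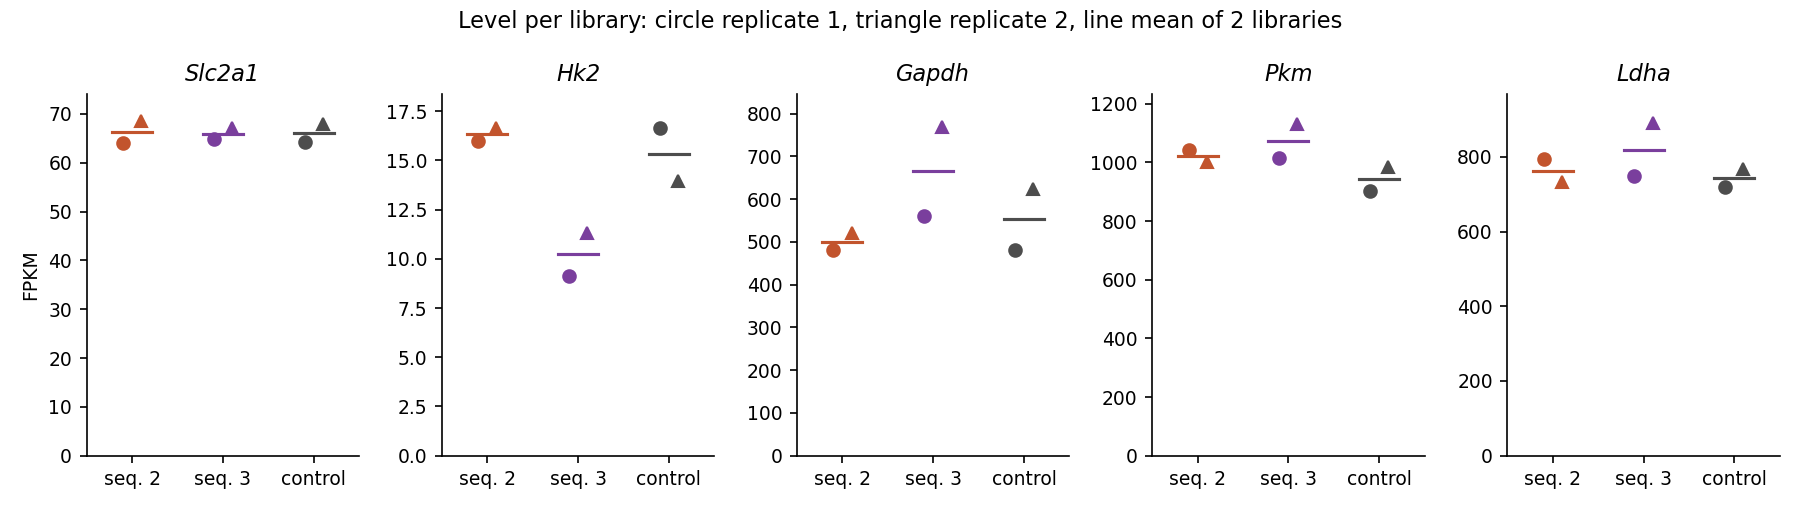
Level of each gene in FPKM (vertical axis, from 0, a scale of its own in each panel) in the 6 libraries, with circles for replicate 1, triangles for replicate 2 and a line for the mean of 2 libraries. Slc2a1 lies between 63.95 and 68.5 FPKM in all 6 libraries, and Hk2 lies lower in the 2 libraries of sequence 3, at 9.13 and 11.3 FPKM, than in the other 4.

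Slc2a1 (ENSRNOG00000007284, locus XLOC_035002) runs from 138154673 to 138182897 on the plus strand of chromosome 5. Coordinates are those of the files, and no source used here names their genome build. Its level was 63.95 and 68.5 FPKM with sequence 2, 64.8 and 67.1 FPKM with sequence 3, and 64.2 and 67.9 FPKM in controls. The 3 groups overlapped fully, and the means of 66.1 ± 2.07 FPKM in knockdown libraries (SD, n = 4) and 66.0 ± 2.65 FPKM in controls (SD, n = 2) were closer together than the replicates of any group. The log2 difference of knockdown against control was 0.00073 (standard error 0.09, limma adjusted p = 0.998), with a 95% interval of -0.22 to 0.22, that is 0.857-fold to 1.17-fold.

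The level of Slc2a1 in FPKM also had a narrow range over the libraries. The highest of the 6 libraries exceeded the lowest by a ratio of 1.07. Among 4641 genes listed in all libraries with a mean of at least 10 FPKM the median ratio was 1.5, and 0.259% of them had a smaller ratio than Slc2a1. This is a description, with no test. As a share of the summed FPKM of all genes, Slc2a1 ranged from 0.0182% (sequence 3 replicate 2) to 0.0222% (sequence 2 replicate 2). On that scale Pkm (0.302% to 0.325%) and Ldha (0.229% to 0.244%) varied relatively less. The narrow range of Slc2a1 thus holds for FPKM as listed. In control replicate 2 the same Ensembl ID also covered a second locus on the opposite strand, XLOC_036067, from 138151025 to 138154865, which overlaps the first listed interval of Slc2a1. That antisense locus had 0.423 FPKM there and was unlisted in the other 5 libraries, and it is contained in the 67.9 FPKM given above, of which the plus strand made up 67.5 FPKM. Whether reads were assigned by strand is not stated in the sources used.

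**Figure D2:**
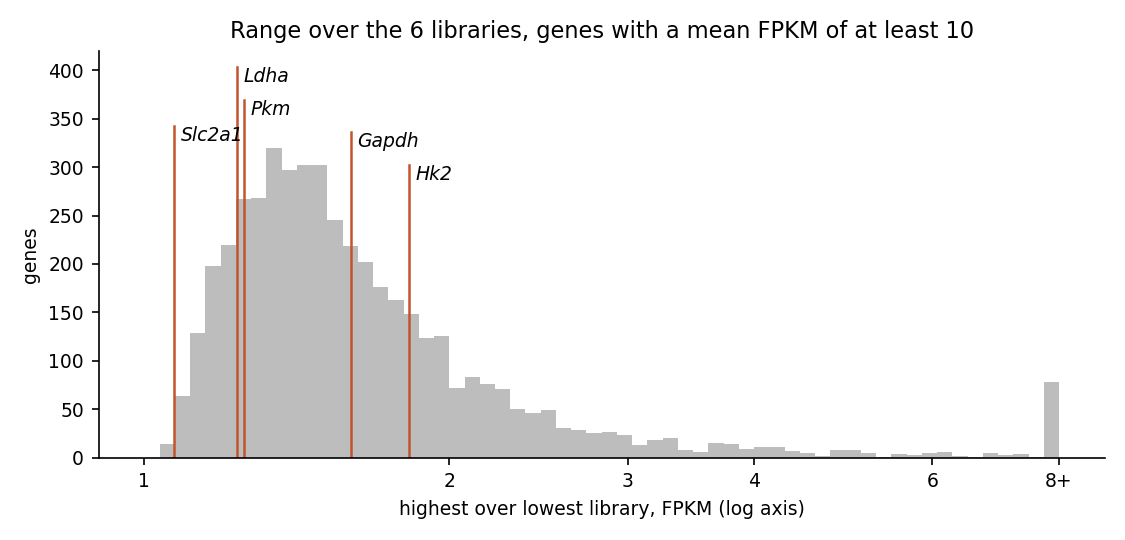
Number of genes (vertical axis) by the ratio of the highest to the lowest of the 6 libraries (horizontal axis, log scale, ratios of 8 and above collected in the last bar), for 4641 genes with a mean of at least 10 FPKM. Lines mark the 5 glucose genes, with Slc2a1 at 1.07 at the far left, Ldha at 1.24, Pkm at 1.255, Gapdh at 1.60 and Hk2 at 1.83.

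Hk2 (ENSRNOG00000006116, locus XLOC_032928), which encodes the inducible hexokinase of muscle and of many growing cells, lies on the minus strand of chromosome 4 from 113559427 to 113610243. It had 16.0 and 16.7 FPKM with sequence 2, 9.13 and 11.3 FPKM with sequence 3, and 16.7 and 13.97 FPKM in controls. Both libraries of sequence 3 lay below the other 4, while those of sequence 2 lay within the range of the controls. The mean was 10.2 ± 1.55 FPKM with sequence 3 and 15.3 ± 1.91 FPKM in controls (SD, n = 2 each), a log2 difference of -0.54 (standard error 0.15, 95% interval -0.92 to -0.16). The unadjusted p was 0.0135 and the adjusted p 0.125 by limma, so that the difference did not pass the threshold over all genes. The unadjusted pass was also lost without replicate 1 of sequence 3 (-0.40, 95% interval -0.81 to 0.012) and without control replicate 1 (-0.42, 95% interval -0.92 to 0.075). A lower level in both libraries of sequence 3 than in both controls was seen in 16.1% of all genes tested. With sequence 2 the log2 difference was 0.09 (95% interval -0.29 to 0.47, limma adjusted p = 0.837), and over both sequences it was -0.23 (95% interval -0.56 to 0.10, limma adjusted p = 0.383).

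The levels of Hk2 with the 2 sequences were compared directly. Hk2 was at 9.13 and 11.3 FPKM with sequence 3 and at 16.0 and 16.7 FPKM with sequence 2, a log2 difference of -0.63 (standard error 0.15, 95% interval -1.01 to -0.25). The unadjusted p was 0.00688, which ranked 98th of 10558 genes, and the adjusted p was 0.735 by limma. In this comparison 0 of 5 genes passed the adjusted threshold, where 0.0663% of all genes did, and 1 of 5, Hk2, passed an unadjusted p of 0.05, where 5.44% of all genes did. Lower values in both libraries of sequence 3 than in both of sequence 2 were seen in 11.6% of all genes. The difference thus exceeded the spread between replicates for this gene taken alone and did not hold after adjustment over all genes.

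**Figure D3:**
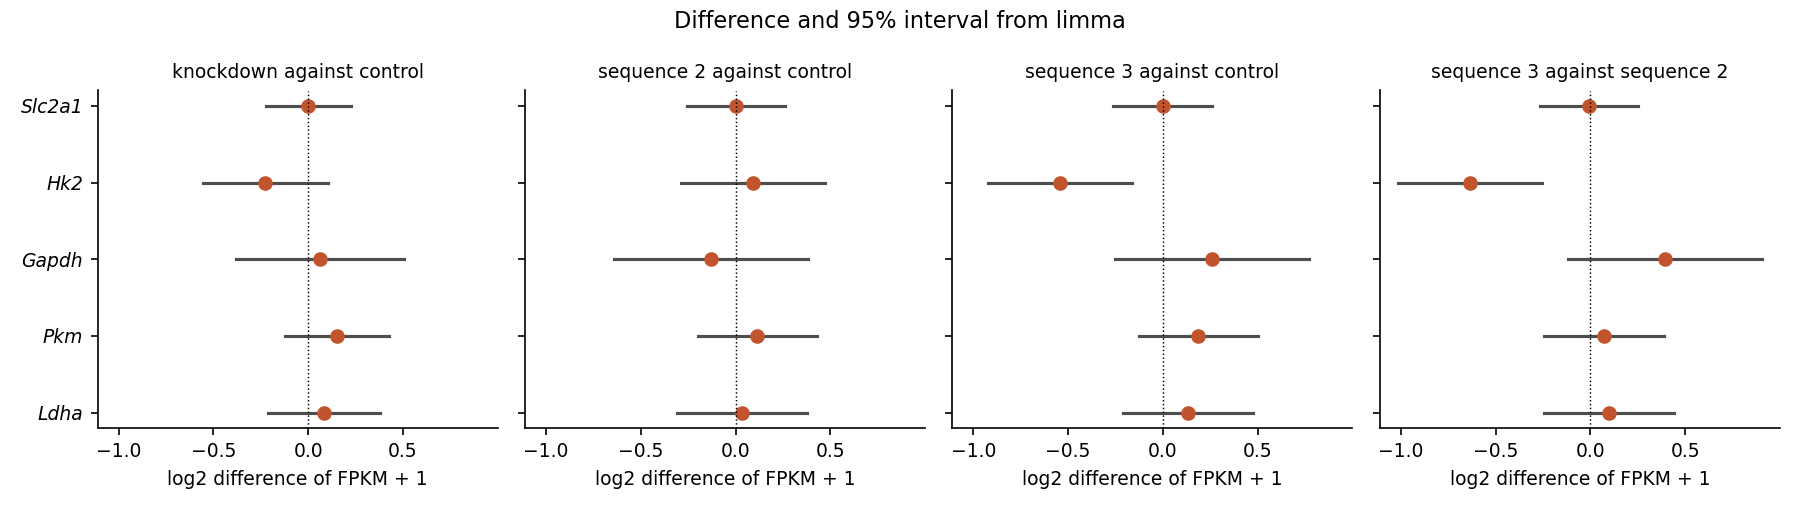
Log2 difference of FPKM + 1 (horizontal axis) for each gene, with a point for the estimate and a line for its 95% interval from limma, in 4 comparisons. The interval of Hk2 leaves out 0 with sequence 3 against control, at -0.54, and with sequence 3 against sequence 2, at -0.63, with all 6 libraries and before any adjustment for the number of genes, and the other intervals all include 0.

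Gapdh (ENSRNOG00000018630, locus XLOC_033241), whose enzyme oxidises glyceraldehyde phosphate and yields NADH, lies on the minus strand of chromosome 4 from 157676370 to 157681259. Its level was 481 and 520 FPKM with sequence 2, 560 and 770 FPKM with sequence 3, and 481 and 624 FPKM in controls. The controls spanned both libraries of sequence 2 to within 1 FPKM, and replicate 2 of sequence 3 was the highest of the 6. The mean was 583 ± 129 FPKM in knockdown libraries (SD, n = 4) and 553 ± 100.8 FPKM in controls (SD, n = 2), a log2 difference of 0.06 (95% interval -0.38 to 0.51, limma adjusted p = 0.868). Its interval, 0.769-fold to 1.42-fold, was the widest of the 5, so that changes within these bounds, in either direction, were not excluded. With 1 library left out the log2 difference lay between -0.12, without control replicate 1, and 0.25, without control replicate 2, and it was -0.051 without replicate 2 of sequence 3.

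Between the sequences, Gapdh was higher in both libraries of sequence 3 than in both of sequence 2, which was seen in 26.5% of all genes. The log2 difference was 0.39 (95% interval -0.12 to 0.90, limma adjusted p = 0.735), and its size depended on single libraries. It was 0.16 (95% interval -0.35 to 0.67) without replicate 2 of sequence 3, and 0.62 (95% interval 0.11 to 1.13, limma adjusted p = 0.292) without replicate 1 of sequence 3. Gapdh varied over the libraries by a ratio of 1.60, and 59.4% of the 4641 genes with a mean of at least 10 FPKM varied less. Its ratio to Pkm within a library was 0.462 and 0.52 with sequence 2, 0.551 and 0.68 with sequence 3, and 0.534 and 0.634 in controls. It was less even over these libraries than Slc2a1, Ldha or Pkm.

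The level of Gapdh rests on its transcript end. The end at 157676370 to 157676664 was listed in all 6 libraries, but a transcript start was listed only in replicate 1 of sequence 2, at 157681084 to 157681259, with 52.2 FPKM against 481 FPKM at the end in the same library. An exon skipping event over 157680215 to 157680582 had the same 52.2 FPKM in that library. Among genes of at least 100 FPKM, between 3.36% and 4.39% lacked a start in a given library. Which start the remaining Gapdh transcripts use is not given by the files.

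Pkm (ENSRNOG00000011329, locus XLOC_043480), which encodes the muscle and proliferating-cell forms of pyruvate kinase, the last step to pyruvate, lies on the plus strand of chromosome 8 from 64481172 to 64502722. It was the highest of the 5, with 1041 and 1001 FPKM with sequence 2, 1016 and 1132 FPKM with sequence 3, and 902 and 984 FPKM in controls. All 4 knockdown libraries lay above both controls, as they did in 22.6% of all genes tested (31.3% for the libraries of sequence 2 alone and 37.1% for those of sequence 3 alone). The mean was 1048 ± 58.8 FPKM in knockdown libraries (SD, n = 4) and 943 ± 57.5 FPKM in controls (SD, n = 2), a log2 difference of 0.15 (standard error 0.11, 95% interval -0.12 to 0.42, limma adjusted p = 0.481). After quantile normalization the log2 difference was -0.064, and after scaling to the same median it was 0.12. Its direction reversed in 1 of 15 alternatives, that with quantile normalization. As a share of the summed FPKM of all genes, Pkm took 0.32% and 0.325% with sequence 2, 0.312% and 0.308% with sequence 3, and 0.302% and 0.308% in controls. On that scale 1 knockdown library, replicate 2 of sequence 3, fell within the control range.

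The 2 forms of pyruvate kinase made from Pkm differ by an exon choice. The files list 2 alternative exon end events in this gene, at 64494577 to 64494847 and at 64495715 to 64495865. Whether these involve the exons that set the 2 forms is not given by the files. Both carry the FPKM of the start and of the end in all 6 libraries, so they give no separate level for either form.

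Ldha (ENSRNOG00000013009, locus XLOC_000848), the lactate dehydrogenase subunit that favours the reduction of pyruvate to lactate, lies on the plus strand of chromosome 1 from 102900286 to 102909707. It had 793 and 733 FPKM with sequence 2, 749 and 890 FPKM with sequence 3, and 720 and 769 FPKM in controls. The groups overlapped. The mean was 791 ± 70.5 FPKM in knockdown libraries (SD, n = 4) and 745 ± 34.3 FPKM in controls (SD, n = 2), a log2 difference of 0.08 (95% interval -0.21 to 0.38, limma adjusted p = 0.737). After quantile normalization it was -0.16 (limma adjusted p = 0.216). Its share of the summed FPKM was 0.244% and 0.238% with sequence 2, 0.229% and 0.242% with sequence 3, and 0.241% in both controls.

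The order of the 5 levels in FPKM, a scale per transcript length, was the same in all 6 libraries, with Pkm highest, then Ldha, Gapdh, Slc2a1 and Hk2. Over the 6 libraries the means were 1013 FPKM for Pkm, 776 for Ldha, 573 for Gapdh, 66.0 for Slc2a1 and 13.96 for Hk2. Of 10558 genes tested, Pkm ranked 31st, Ldha 49th, Gapdh 93rd, Slc2a1 824th and Hk2 3708th from the highest mean. The ranges of Ldha and Gapdh over the libraries overlapped, from 720 to 890 FPKM and from 481 to 770 FPKM. Within each library Ldha was above Gapdh, by 120 to 312 FPKM. The ranges of the other neighbours did not overlap.

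**Figure D4:**
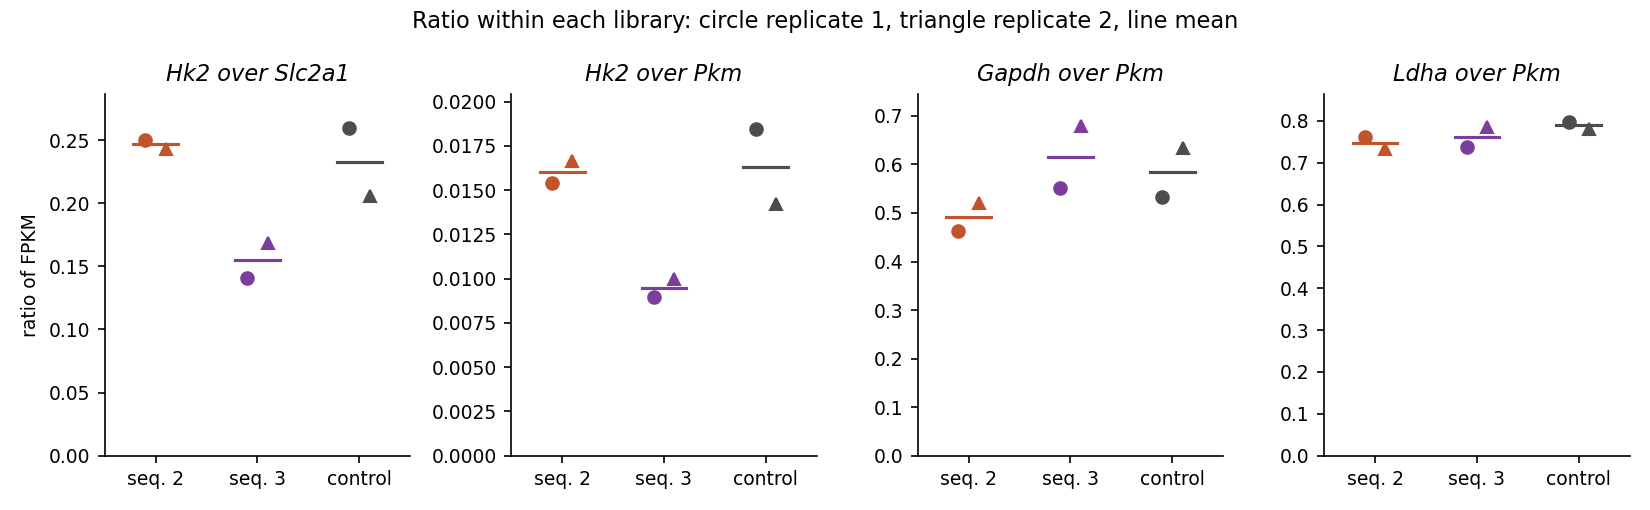
Ratio of the FPKM of 2 genes within each library (vertical axis, from 0), with circles for replicate 1, triangles for replicate 2 and a line for the mean. Hk2 over Slc2a1 is 0.141 and 0.169 with sequence 3, below the other 4 libraries, whereas Ldha over Pkm stays between 0.732 and 0.798 in all 6.

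Ratios within a library do not change when all its values are multiplied by the same factor. Hk2 over Slc2a1 was 0.25 and 0.243 with sequence 2, 0.141 and 0.169 with sequence 3, and 0.26 and 0.206 in controls. Both libraries of sequence 3 lay below the other 4 on this ratio. It largely repeats the level of Hk2, because Slc2a1 in FPKM varied over the libraries by a ratio of just 1.07. Ldha over Pkm was 0.762 and 0.732 with sequence 2, 0.737 and 0.786 with sequence 3, and 0.798 and 0.781 in controls, with replicate 2 of sequence 3 inside the range of the controls. The sum of the 5 genes was 0.736% and 0.759% of the FPKM of all genes with sequence 2, 0.735% and 0.78% with sequence 3, and 0.732% and 0.769% in controls, and these ranges overlapped.

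Over the 6 libraries, Pkm and Ldha varied most alike of the 10 pairs of members (Pearson's r of log2(FPKM + 1) = 0.889), followed by Gapdh with Ldha (0.789) and with Pkm (0.694). Hk2 ran the other way, with r between -0.57 and -0.37 against Gapdh, Pkm and Ldha, and 0.049 against Slc2a1. These are descriptions over 6 libraries that share their groups and their scaling, and replicate 2 of sequence 3 was the highest library for Gapdh, Pkm and Ldha. A level that followed a gene at r above 0.9 was found for 1018 of 10557 other genes with Pkm, 563 with Ldha, 229 with Gapdh, 33 with Hk2 and 16 with Slc2a1. The genes most like Hk2 were ENSRNOG00000001126 (r = 0.983, mean 10.9 FPKM) and ENSRNOG00000007054 (r = 0.978, mean 3.71 FPKM). Those most like Pkm were ENSRNOG00000004214 (r = 0.999, mean 1020.4 FPKM) and ENSRNOG00000049912 (r = 0.997, mean 83.1 FPKM). For Ldha they were ENSRNOG00000013254 (r = 0.998, mean 20.2 FPKM) and ENSRNOG00000005418 (r = 0.996, mean 24.6 FPKM), and for Gapdh ENSRNOG00000020643 (r = 0.991, mean 29.6 FPKM) and ENSRNOG00000007262 (r = 0.991, mean 6.4 FPKM). For Slc2a1 they were ENSRNOG00000043410 (r = 0.981, mean 4.42 FPKM) and ENSRNOG00000049116 (r = 0.975, mean 1.3 FPKM). ENSRNOG00000049116 stood at 0 FPKM in the replicate 1 library of each group, the value set for an unlisted gene, so its likeness to Slc2a1 rests on those zeros.

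An exact permutation test of knockdown against control over libraries has 15 splits, 4 against 2, and cannot give a two-sided p below 0.133. Pkm reached that value, and the other 4 genes gave exact permutation p-values of 0.533 to 1.0. Any gene with all 4 knockdown libraries above both controls reaches it, which was so for 22.6% of all genes tested.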

How the data were processed

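RNA-seq was analysed in 6 libraries, 2 each for interference sequences 2 and 3 and for control, grouped by their titles. Per library, the authors deposited a table of events and their FPKM. From the submitters' processing notes come, without roles, HISAT2 2.0.1, HTSeq 0.6.1, StringTie 1.0.4, Trimmomatic 0.30, SAMtools 0.1.18 and bcl2fastq 2.17.1.14. No source used here names the build or annotation. Repeated event IDs were dropped, leaving 238366 of 247349 rows. Starts and ends were summed per Ensembl ID, or per locus without one, the larger sum was taken, and an unlisted gene was set to 0. Where a gene had both sums in a library (59213 cases), 74.8% agreed within a tolerance of 0.1%. Genes with at least 1 FPKM in at least 2 libraries were tested on log2(FPKM + 1), which understates the change of low genes, with limma 3.58.1 in R 4.3.3 (mean-variance trend, 1 mean per group, all 6 libraries). Tables were read with pandas 2.3.3 in Python 3.11.15. The model was also run on simulated data with larger changes than those of the 5 genes. That run does not show how it recovers smaller changes. The members, lists and tests were chosen with earlier results of these data known. Of the planned lists, 136 symbols and the cell type markers were not analysed here because no annotation paired them with the IDs. The naming rule took the 5 genes and, for each, the 2 most similar. Alternatives changed the pseudocount, filter, scaling, summing and libraries, and added the replicate number as a block. Promoters are RefSeq sequences of build GRCr8, matched by symbol for 5 of 5 genes, without the 50 bases after the start.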

Additional observations from a re-analysis of the deposited data

Results flagged for a closer look

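Hk2 lay on opposite sides of the control mean with the 2 interference sequences, although both libraries of sequence 2 lay within the range of the controls. Relative to the control mean on the log2 scale, its 2 libraries of sequence 3 were at -0.68 and -0.40 and those of sequence 2 at 0.065 and 0.12. The direct comparison of sequence 3 with sequence 2 gave -0.63 with an adjusted p of 0.735 by limma, and the adjusted p ranged from 0.292 to 1 over the alternatives.

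Gapdh lay the other way round, with libraries of sequence 3 at 0.03 and 0.49 and those of sequence 2 at -0.19 and -0.075 relative to the control mean. Replicate 1 of sequence 3 and replicate 2 of sequence 2 lay within the range of the controls. Sequence 3 against sequence 2 gave 0.39 with an adjusted p of 0.735 by limma, between 0.16 and 0.62 with 1 library left out, and the adjusted p ranged from 0.292 to 1 over the alternatives.

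An exon skipping event of Gapdh, outside the start and end values used for levels, was listed with 52.2 FPKM in replicate 1 of sequence 2 and was unlisted in both controls and in the other 3 knockdown libraries. Groups of 2 libraries are too small for a test of single outlying samples.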

How the results depend on the processing

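Under the 15 alternatives, 0 of 5 genes were called by limma in any of the 4 comparisons, and 264 of 296 values of single genes kept their direction, while 31 reversed and 1, Pkm with sequence 2 after quantile normalization, was 0. With summed starts only, Gapdh was not tested, since only 1 library lists a start. Hk2 stayed lower with sequence 3 under every alternative run, between -0.68 and -0.40 against control (adjusted p 0.109 to 0.458) and between -0.78 and -0.49 against sequence 2. Many of the kept directions were fixed in advance. A change of filter, the replicate block or leaving out a library of neither compared group cannot move the estimate of a gene. The choice of sum could not move Hk2 either, since its starts and ends had the same sum in each library. Quantile normalization turned the direction of Slc2a1 (-0.082), Gapdh (-0.20), Pkm (-0.064) and Ldha (-0.16) in knockdown against control, of Slc2a1 (-0.012) and Ldha (-0.12) with sequence 2, of Gapdh (-0.10), Pkm (-0.13) and Ldha (-0.20) with sequence 3, and of Pkm (-0.13) and Ldha (-0.079) between the sequences. Scaling to the same median turned Slc2a1 in knockdown (-0.025) and with sequence 2 (-0.0057), and sums per locus turned it with sequence 3 (0.0023). The cause was not tested.

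Leaving out 1 library gave -0.040 to 0.041 for Slc2a1, -0.34 to -0.11 for Hk2, -0.12 to 0.25 for Gapdh, 0.089 to 0.21 for Pkm and 0.022 to 0.15 for Ldha in knockdown against control. It gave -0.045 to 0.052 for Slc2a1, -0.028 to 0.21 for Hk2, -0.32 to 0.055 for Gapdh, 0.053 to 0.18 for Pkm and -0.022 to 0.092 for Ldha with sequence 2, and -0.043 to 0.038 for Slc2a1, 0.030 to 0.49 for Gapdh, 0.11 to 0.26 for Pkm and 0.0087 to 0.26 for Ldha with sequence 3. Between the sequences it gave -0.054 to 0.043 for Slc2a1, 0.16 to 0.62 for Gapdh, -0.0063 to 0.15 for Pkm and -0.027 to 0.22 for Ldha. The unadjusted pass of Hk2 with sequence 3 against control was lost without sequence 3 replicate 1 or control replicate 1. The count of all genes called lay between 163 and 628 in knockdown against control (539 with all libraries), 128 and 404 with sequence 2 (375), 135 and 562 with sequence 3 (444), and 0 and 12 between the sequences (7). Against control, the lowest counts were those without control replicate 1, and leaving out control replicate 2 or either library of sequence 2 also lowered them by over 1.5 times. Between the sequences it was also 11 with a pseudocount of 0.1, 0 over genes with at least 1 FPKM in all 6 libraries, 14 with summed starts and 4 with summed ends.

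Samples of the same replicate number were not treated as pairs in the main fit. Over the genes tested, their deviations from the group means correlated at -0.086, -0.071 and 0.18, which cannot tell whether they belonged together. Slc2a1 and Gapdh were higher in replicate 2 than in replicate 1 of each group, and Hk2, Pkm and Ldha were not. With the replicate block 0 genes were called between the sequences, and the block changed no call among the 5 genes. No depth was available to say what it limits.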
